A study of Bos taurus with 27 samples.

Results

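The cytokines, chemokines and their receptors were taken as every non-control probe of a bovine oligonucleotide array whose gene name starts with IL and a digit, CCL, CXCL, CCR and a digit, or CXCR, or is TNF or IFNG. This gave 119 probes with 118 gene names, of 15008 probes with 14952 names on the array, and CXCR2 was the name with more than 1 probe. Rumen epithelium (RE) had been biopsied with a punch from the ventral sac of the rumen of 9 castrated and fistulated Japanese Black cattle, each at the early stage (14 months of age), the middle stage (21 months) and the late stage (29 months) of fattening. All cattle ate concentrate with rice straw as forage, and concentrate made up a larger share of the diet at the middle and late stages than at the early stage, so that no stage is an untreated control and diet and age cannot be told apart. The RNA of each biopsy was hybridized to 1 one-color array, which gave 27 arrays, 9 per stage. Differences from the early to the middle stage make up the first period, those from the middle to the late stage the second, and those from the early to the late stage the total period.

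Cytokines are small secreted proteins through which cells instruct each other, and chemokines are those that draw leukocytes along a gradient. The interleukin-1 family, which includes interleukin-18, interleukin-33 and the interleukin-36 group, is made in large part by stratified epithelia and acts through receptors that pair a binding chain with an accessory chain and signal to NF-κB. Several members are brakes: IL1RN and IL36RN occupy a receptor without activating it, IL1R2 is a decoy receptor, and IL18BP binds interleukin-18 in the fluid between cells. The receptors of interleukins 10, 20, 22 and 26 are built from a few shared chains, among them IL10RB, IL20RA, IL20RB and IL22RA1, and epithelial cells use them to receive signals from leukocytes.

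Probes behind some of the changes described below are shown here, because a level on the array is the signal of these 60 bases and of nothing else of the gene. Positions are those that the array files give on UMD 3.1 (bosTau6), and the exon or UTR they fall in was not analysed here. The interleukin-36 and interleukin-18 probes follow, and capitals mark the longest run, 8 bases, that the IL36A and IL36G probes have in common.
IL36A, chr11:46572802-46572861, plus strand: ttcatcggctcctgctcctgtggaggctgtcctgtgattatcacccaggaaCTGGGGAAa
IL36G, chr11:46549182-46549241, plus strand: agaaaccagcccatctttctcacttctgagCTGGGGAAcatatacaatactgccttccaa
IL36RN, chr11:46624544-46624603, plus strand: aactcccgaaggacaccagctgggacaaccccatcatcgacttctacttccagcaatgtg
IL18, chr15:22800557-22800616, minus strand: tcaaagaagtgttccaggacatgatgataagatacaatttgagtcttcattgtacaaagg
Some receptor chains of the interleukin-10 and interleukin-17 groups with large changes were read by these probes, which hold no marked part.
IL10RB, chr1:1577722-1577781, minus strand: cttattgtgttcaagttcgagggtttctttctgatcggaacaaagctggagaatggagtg
IL20RB, chr1:133285345-133285404, minus strand: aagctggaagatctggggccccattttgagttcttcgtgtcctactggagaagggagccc
IL17RA, chr5:109390165-109390224, plus strand: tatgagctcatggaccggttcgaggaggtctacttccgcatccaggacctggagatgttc
IL36G, IL36A, IL36RN and IL1RN lie in a row on chromosome 11 together with IL1A, IL1B and IL37, and the 7 probes span chr11:46349453-46705674. A second group on the same chromosome, chr11:6754112-7220972, holds the probes of the receptors IL1R2, IL1R1, IL1RL2, IL1RL1 and IL18RAP.

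Genes are named as in the array design, and for 84 of the 119 probes the accession was found in the RefSeq gene table of ARS-UCD2.0. The current symbol differed for 6 of them. The probe named IL6 carries an accession that now belongs to LOC517016, so that no value for IL6 itself is given, and the probe named IL4I1 carries an accession that now belongs to NUP62. Of the probes named CXCR2, the accession of 1 is now that of CXCR1. CXCL6, CXCR7 and IL28RA are now called CXCL5, ACKR3 and IFNLR1, and the names of the array are kept here.

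A level is the log2 processed intensity of a probe relative to the median of its array, and a probe is called measured at a stage where the scanner software marked it well above background on all 9 arrays of that stage. Signal over background was lowest at the middle stage, where the array medians lay between 8.05 and 28.1 intensity units, against 34.5 to 47.5 at the early and 31.4 to 45.9 at the late stage. Of the 119 probes, 65 to 94 were above background on an early-stage array, 37 to 72 on a middle-stage array and 62 to 78 on a late-stage array. Most slides held a single stage. Slide 2 alone held 2 stages (animal 9 early, cattle 1 to 7 middle), and no late-stage array shared a slide or a scan day with another stage, so that for the second and total periods slide and stage cannot be told apart. Levels, SDs and *P* values come from 9 arrays per stage, whose number limits the precision. No value of these probes was saturated or marked as an outlier.

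Measured probes numbered 56 in early, 32 in middle and 55 in late biopsies. Altogether 59 were measured at 1 stage or more, which is 49.6% of the 119, against 67.7% of all probes on the array. In every stage 32 were measured, in exactly 2 stages 20 and in exactly 1 stage 7. Another 41 were above background on some arrays but never on all 9 of a stage, and 19 were above background on 0 of 27 arrays. Detection differed by role. Of the interleukin-1 family 9 of 10 were measured, of its receptors 5 of 7 and of the interleukin-10 family receptors 5 of 6. None was measured of the 7 ligands grouped with the common gamma chain receptors, a group that takes in IL13, whose receptor is IL13RA1. Neither TNF nor IFNG was measured. The chart of detection by role gives these counts.

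**Figure D1:**
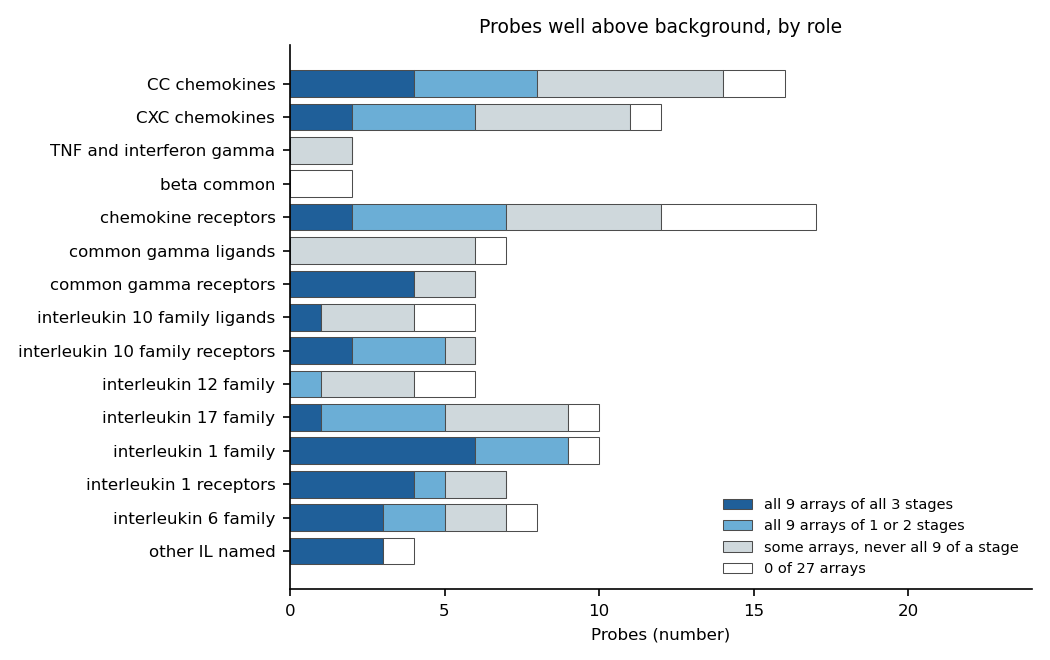
Number of probes (x axis) in each role (y axis) that were well above background on all 9 arrays of all 3 stages, of 1 or 2 stages, on some arrays only, or on 0 of 27 arrays. The interleukin-1 family has 6 of its 10 probes in the darkest class, and the beta common group (IL3 and IL5) has both probes at 0 arrays.

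The probes above background on no array were those named IL4, IL12A, IL20, IL23R, IL24, IL31RA, IL37, CCL4, CCL26, CCR2, CCR6, CCR8, CCR9 and CXCR3, with those of IL3, IL5, IL16, IL17RB and CXCL17. They gave no signal above background, which sets no limit on RNA that the probes do not match. Probes just short of being measured, with 8 of 9 arrays at 2 stages, were IL13, a cytokine of type 2 immunity, and CCR1, a receptor of inflammatory CC chemokines. The remaining probes measured at no stage were CCL3, CCL17, CCL19, CCL20, CCL24, CCL28, CXCL2, CXCL9, CXCL11, CXCL13, CXCL16, CCR3, CCR4, CXCR1, IL2, IL7, IL9, IL15, IL21, IL7R, IL21R, IL19, IL22, IL26, IL28RA, IL12B, IL12RB1, IL12RB2, IL17A, IL17B, IL17F, IL17RD, IL18RAP, IL1RAPL2 and IL27, with TNF, IFNG, the second CXCR2 probe and the probe named IL6.

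Among the 56 probes measured at the early or the middle stage, 14 were higher and 17 lower during the first period (25.0% and 30.4%), against 30.7% and 31.1% of all array probes measured in the same way. Among the 55 measured at the middle or the late stage, 17 were higher and 13 lower during the second period (30.9% and 23.6%), against 40.1% and 26.7% of all such probes. The 32 probes measured at both stages of a period had 12 higher and 9 lower during the first and 9 higher and 10 lower during the second period. The share called among all array probes measured at both stages was not counted, so these numbers are not compared with the array. Over the total period 6 were higher and 8 lower of 59 (10.2% and 13.6%), against 15.5% and 8.92%. The counts are not read as particular to these genes, and what follows is about which of them moved. Counted over all 119 probes, dim ones included, 48 were higher and 19 lower during the first period, where 45.3% and 21.3% of all probes were called. The counts were 20 and 51 during the second period (27% and 44.6% of all probes) and 9 and 13 over the total period (11.2% and 8.93%). The median log2 fold change of the 119 probes was 0.34, −0.47 and −0.09 in the 3 comparisons, and that of all probes 0.32, −0.27 and 0.03. In the 32 measured at both stages of the first period the median was 0.06, against 0.08 in all 6811 such probes.

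**Figure D2:**
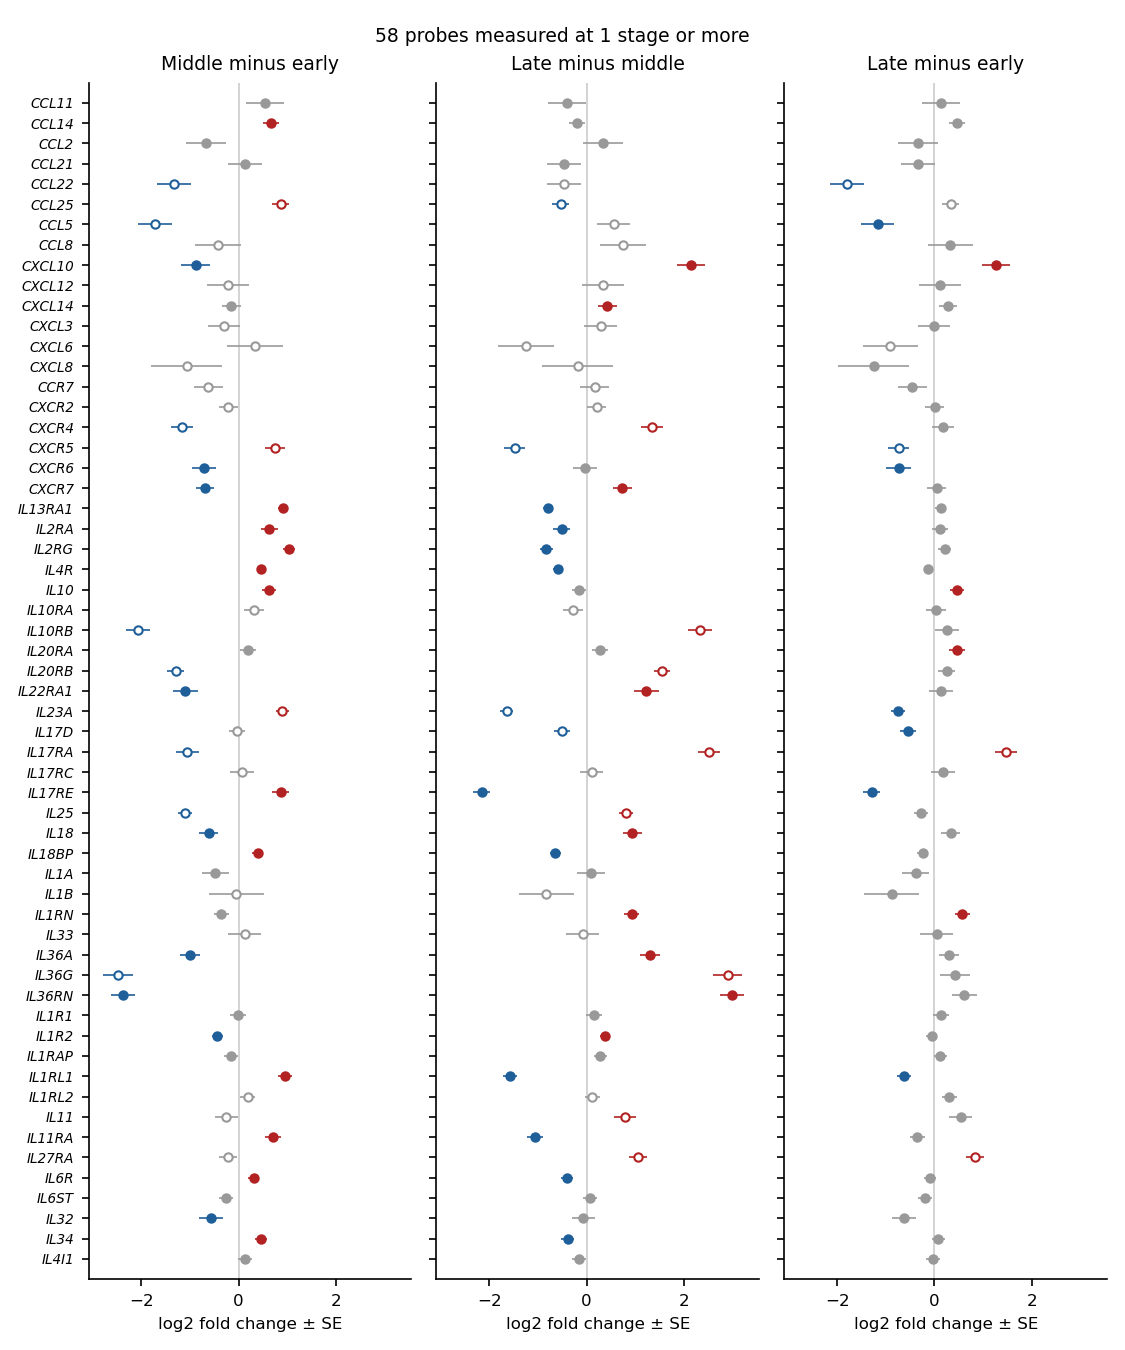
log2 fold change ± SE (x axis) of 58 of the 59 measured probes (y axis, ordered by role) in the 3 comparisons. Red points were called higher and blue points lower (adjusted *P* below 0.05), gray points were not called, and open points were measured at 1 of the 2 stages at most; IL36G, IL36RN and IL10RB lie at −2.07 or below on the left and at 2.32 or above in the middle.

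IL36G and IL36RN of the interleukin-36 group gave the largest changes of the measured probes in the first and second periods. IL36A, IL36G and their antagonist IL36RN all had their lowest signal at the middle stage and regained it at the late stage. IL36RN, the receptor antagonist, had lowest, median and highest levels over the 9 cattle of 3.46, 4.55 and 5.63 (early), 0.63, 2.35 and 3.02 (middle) and 4.62, 5.23 and 6.09 (late), the order in which all later levels are given. All 9 middle-stage levels lay below every level of the other stages. The log2 fold change of IL36RN was −2.38 ± 0.25 (adjusted *P* = 4.5e-07) during the first period and 3.00 ± 0.25 (adjusted *P* = 1.03e-08) during the second, lower in 9 of 9 and then higher in 9 of 9 cattle.

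IL36G, an agonist released by stressed keratinocytes, lay at 1.17, 2.71 and 3.52 (early), −0.65, 0.20 and 1.81 (middle) and 2.36, 3.05 and 3.53 (late), and 7 of its 9 middle-stage spots were above background. It changed by −2.48 ± 0.31 (adjusted *P* = 2.61e-06) and then 2.90 ± 0.31 (adjusted *P* = 1.85e-07). One animal went the other way during the first period, and the early-stage range overlapped the middle-stage range while the late-stage range did not. IL36A, an agonist of the same receptor, lay at 6.66, 7.58 and 8.23 (early), 5.13, 6.73 and 7.38 (middle) and 7.25, 8.00 and 8.36 (late), and changed by −1.0 ± 0.21 (adjusted *P* = 0.00042) and 1.30 ± 0.21 (adjusted *P* = 2.34e-05). Its ranges overlapped, with 8 of 9 cattle lower and then 9 of 9 higher. Over the total period none of the 3 was called, and the largest difference was that of IL36RN, 0.62 ± 0.25 (adjusted *P* = 0.0907). Their receptor chain IL1RL2 was not called in any comparison and lay at −0.85, −0.35 and 0.18 (early), −0.83, −0.31 and 0.47 (middle) and −0.55, 0.03 and 0.21 (late), with 8 of 9 middle-stage arrays above background.

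IL18, an epithelial cytokine that induces interferon gamma, lay at 2.64, 3.07 and 3.49 (early), 1.59, 2.57 and 3.52 (middle) and 3.11, 3.50 and 3.87 (late). It changed by −0.61 ± 0.19 (adjusted *P* = 0.00851) during the first period and by 0.95 ± 0.19 (adjusted *P* = 0.000217) during the second. The first of these calls was lost when the 3 dimmest middle-stage arrays were left out (−0.23, adjusted *P* = 0.192), a choice made after seeing the data. IL18BP, which neutralizes IL18, went the opposite way by 0.39 ± 0.11 (adjusted *P* = 0.00463) and −0.64 ± 0.11 (adjusted *P* = 5.56e-05), with both signs turned under normexp background correction (−0.07 and 0.06, neither called). IL1RN, the antagonist of IL1A and IL1B, lay at 3.80, 4.14 and 4.78 (early), 3.1, 3.91 and 4.34 (middle) and 4.45, 4.79 and 5.11 (late). It rose by 0.93 ± 0.16 (adjusted *P* = 3.68e-05) during the second period in 9 of 9 cattle, with no overlap of the ranges, and by 0.57 ± 0.16 (adjusted *P* = 0.0142) over the total period, whereas the first-period difference was −0.36 ± 0.16 (adjusted *P* = 0.0501).

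The agonists that IL1RN blocks were not called in any comparison. IL1A lay at 1.46, 2.68 and 3.77 (early), 1.55, 2.54 and 2.98 (middle) and 1.46, 2.28 and 4.38 (late), and its first-period difference was −0.48 ± 0.28 (adjusted *P* = 0.14). IL1B, which is released by activated leukocytes and epithelium, ranged more widely, with −1.15, −0.53 and 3.75 (early), −1.50, −0.01 and 1.58 (middle) and −1.43, −1.20 and 0.41 (late). Animal 9 stood at 3.75 at the early stage and no other animal above 0.87, and its total-period difference was −0.88 ± 0.56 (adjusted *P* = 0.304). IL33, an alarmin stored in nuclei, was not called either and had stage means of 0.57, 0.70 and 0.62. IL37 was above background on no array.

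**Figure D3:**
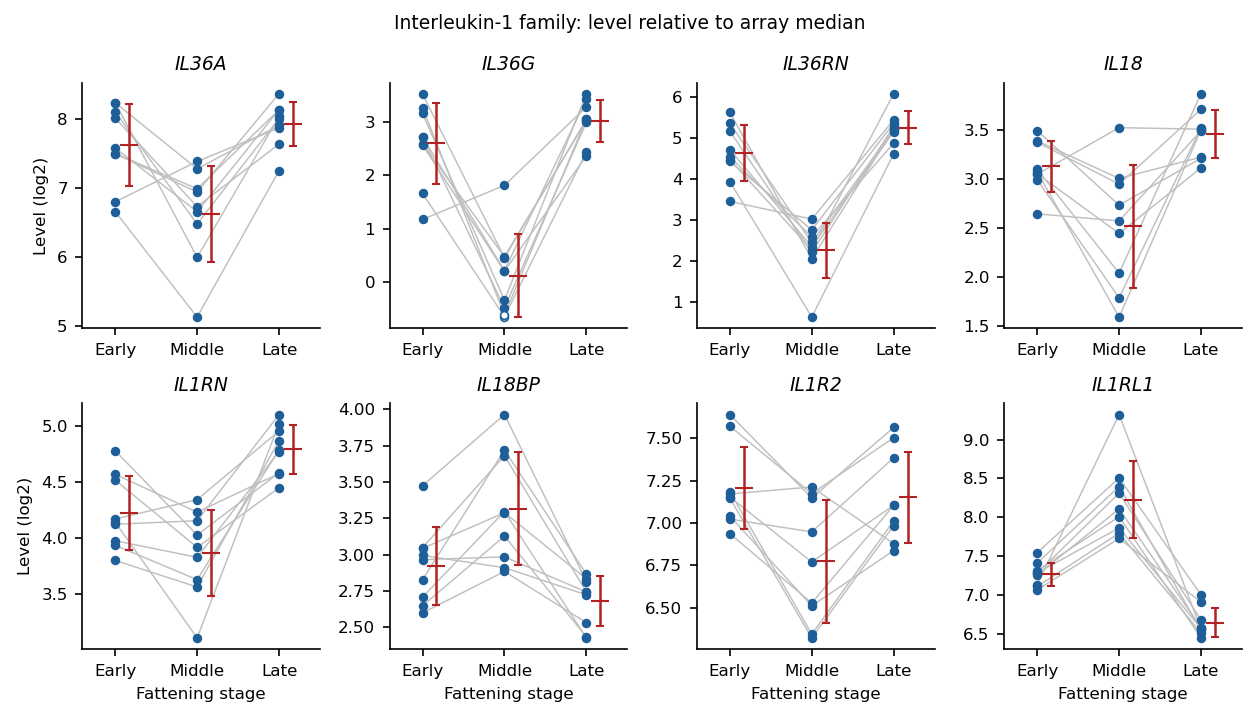
Level (log2 intensity relative to the array median, y axis) at the early, middle and late stages (x axis) for 8 interleukin-1 family genes; each point is 1 animal, gray lines join the arrays of an animal, open points were not well above background, and red marks are means ± SD of 9. All 9 middle-stage points of IL36RN lie at 3.02 or below, and all 9 of IL1RL1 at 7.73 or above.

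Of the interleukin-1 receptors, IL1R2 and IL1RL1 were called and IL1R1, IL1RAP and IL1RL2 were not. IL1R2, the decoy that binds interleukin-1 without a signal, lay at 6.94, 7.15 and 7.64 (early), 6.32, 6.77 and 7.21 (middle) and 6.84, 7.10 and 7.56 (late). It changed by −0.43 ± 0.11 (adjusted *P* = 0.00168) and 0.38 ± 0.11 (adjusted *P* = 0.00391), in 8 and 8 of 9 cattle, and the second call was lost with scaling to the 75th percentile. IL1R1, the signaling receptor, had stage means of 1.84, 1.83 and 1.98, and its accessory chain IL1RAP 0.72, 0.56 and 0.85.

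IL1RL1, the receptor of IL33, lay at 7.07, 7.28 and 7.55 (early), 7.73, 8.11 and 9.32 (middle) and 6.45, 6.57 and 7.01 (late), so that no range overlapped another. It changed by 0.96 ± 0.15 (adjusted *P* = 2.55e-05), −1.58 ± 0.15 (adjusted *P* = 4.23e-08) and −0.62 ± 0.15 (adjusted *P* = 0.00588) in the 3 comparisons, and the first and last were not called under normexp correction (0.36, adjusted *P* = 0.268, and −0.33, adjusted *P* = 0.558). The IL1RL1 probe at chr11:7141455-7141514 was the only one of the 119 to share a run of 20 or more bases, on either strand, with any other probe of the array, which held for 0.686% of all probes. The run found most often, in 3 others, is shown because it is not particular to this gene.
IL1RL1, shared run: ATGCATTGGAGAAGGAAATG
The 5 other probes with such a run are named H2B, ZNF674, ACPP, UPK1B and POLH. All 5 were above background on all 27 arrays and moved the same way: by 1.13, 0.54, 1.05, 1.14 and 1.03 during the first period and by −1.25, −0.76, −1.51, −1.31 and −1.36 during the second. The RNA of IL1RL1 and RNA of other loci with this run cannot be told apart with this probe.

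Receptor chains of the interleukin-10 family also fell and returned, and 3 of the 5 measured ones were called in both periods. Of all array probes measured at either stage compared, 31.1% were lower during the first period and 40.1% higher during the second. The share of array probes called in both periods was not counted. IL10RB, the chain shared by the receptors of interleukins 10, 22 and 26, lay at 2.5, 2.71 and 2.83 (early), −1.84, 0.84 and 1.39 (middle) and 2.60, 2.90 and 3.30 (late), with 8 of 9 middle-stage arrays above background. Its middle-stage range lay wholly below the others. It changed by −2.07 ± 0.25 (adjusted *P* = 1.8e-06) and 2.32 ± 0.25 (adjusted *P* = 1.9e-07), in 9 of 9 cattle each time, and by 0.26 ± 0.25 (adjusted *P* = 0.515) over the total period.

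IL20RB, a chain for interleukins 19, 20 and 24, lay at 0.12, 0.63 and 0.95 (early), −1.41, −0.76 and 0.52 (middle) and 0.49, 0.94 and 1.09 (late), with 7 of 9 middle-stage arrays above background. It changed by −1.29 ± 0.17 (adjusted *P* = 6.41e-06) and 1.55 ± 0.17 (adjusted *P* = 3.78e-07), in 9 of 9 cattle each time, though the ranges overlapped. IL22RA1, which with IL10RB forms the receptor of interleukin-22, lay at 1.73, 2.67 and 4.00 (early), 0.68, 1.70 and 2.55 (middle) and 1.95, 3.15 and 3.80 (late). It changed by −1.09 ± 0.25 (adjusted *P* = 0.000975) and 1.23 ± 0.25 (adjusted *P* = 0.000253), in 8 and 8 of 9 cattle.

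IL20RA, the partner of IL20RB, did not follow them. It lay at 6.41, 7.24 and 7.51 (early), 6.75, 7.42 and 7.92 (middle) and 7.28, 7.63 and 7.91 (late), and was higher in 9 of 9 cattle over the total period by 0.47 ± 0.16 (adjusted *P* = 0.0488), a call lost under every other scaling tried and when 6 of the 9 cattle were left out in turn (cattle 1, 3, 5, 6, 7 and 8, with an adjusted *P* between 0.0604 and 0.14). IL10RA, the leukocyte chain for interleukin-10, was not called and had stage means of −1.32, −1.0 and −1.29. IL10, which dampens inflammation, was the one measured ligand of the family and lay at 0.99, 1.22 and 1.71 (early), 1.46, 1.85 and 2.82 (middle) and 1.60, 1.72 and 1.97 (late). It rose by 0.63 ± 0.15 (adjusted *P* = 0.00112) during the first period, which normexp correction left not called, differed by −0.16 ± 0.15 (adjusted *P* = 0.334) in the second, and was higher by 0.47 ± 0.15 (adjusted *P* = 0.0308) over the total period, a call lost under 3 of 4 other scalings and without animal 1, 2, 3, 5, 6 or 8 (adjusted *P* between 0.0543 and 0.0785). The probes of IL19, IL22 and IL26 were above background on at most 5 arrays of a stage, and those of IL20 and IL24 on none.

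**Figure D4:**
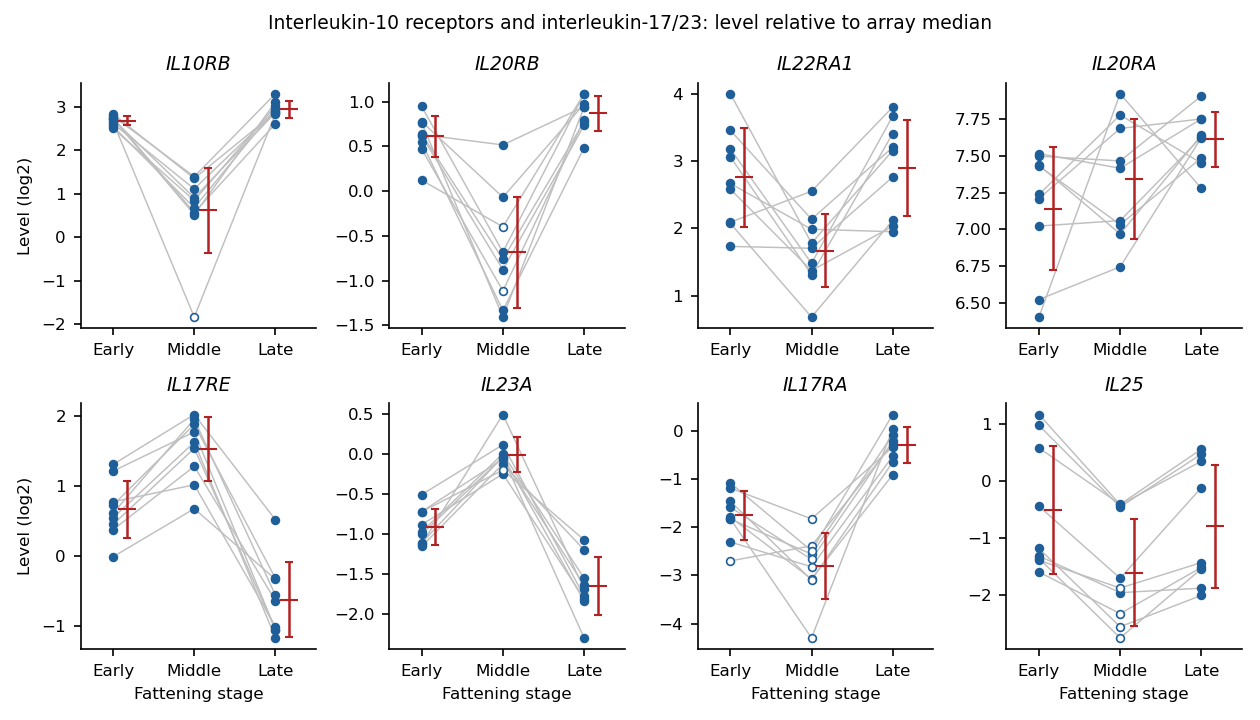
Level (log2 intensity relative to the array median, y axis) by stage (x axis) for receptors of the interleukin-10 family and for genes of the interleukin-17 and 23 axis, drawn as in the plot of the interleukin-1 family. IL10RB and IL20RB dip at the middle stage while IL17RE and IL23A peak there, and the IL25 points of 4 cattle lie above those of the other 5 at every stage.

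On the interleukin-17 and 23 axis, by which lymphocytes act on epithelial barriers, single chains moved in opposite directions. IL17RE, the epithelial receptor chain for interleukin-17C, lay at −0.01, 0.61 and 1.31 (early), 0.68, 1.63 and 2.02 (middle) and −1.17, −0.64 and 0.52 (late). It rose by 0.86 ± 0.17 (adjusted *P* = 0.000304) in 9 of 9 cattle, fell by 2.16 ± 0.17 (adjusted *P* = 6.94e-09) in 9 of 9 and stood at −1.29 ± 0.17 (adjusted *P* = 3.56e-05) over the total period. The middle-stage and late-stage ranges did not overlap. IL23A, the specific subunit of interleukin-23, lay at −1.16, −0.97 and −0.51 (early), −0.25, −0.04 and 0.49 (middle) and −2.30, −1.69 and −1.08 (late), with 8 of 9 middle-stage arrays above background. Its changes were 0.90 ± 0.14 (adjusted *P* = 2.97e-05), −1.64 ± 0.14 (adjusted *P* = 1.48e-08) and −0.74 ± 0.14 (adjusted *P* = 0.00111), each in the same direction in all 9 cattle.

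IL17RA, the chain shared by the interleukin-17 receptors, was above background on 8 early-stage, 0 middle-stage and 9 late-stage arrays. Its levels, those at background included, were −2.70, −1.79 and −1.08 (early), −4.30, −2.67 and −1.83 (middle) and −0.91, −0.27 and 0.34 (late). Late-stage signal was at least 2.53-fold higher than at the middle stage, with the bound taken against the lowest signal above background on each middle-stage array. The second-period call of the limma fit (adjusted *P* = 2.56e-08) used the middle-stage values at background and does not test this bound. Over the total period IL17RA rose by 1.46 ± 0.23 (adjusted *P* = 0.000156) in 9 of 9 cattle, with no overlap. No first-period size is given, since its middle-stage signal was at background. IL17RC, the other chain for interleukin-17A, was not called, with stage means of −1.34, −1.27 and −1.16. IL17D fell by 0.50 ± 0.16 (adjusted *P* = 0.00921) during the second period and by 0.54 ± 0.16 (adjusted *P* = 0.0225) over the total period, and was above background on 6 of 9 middle-stage arrays. Quantile normalization ended both calls.

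IL25, a cytokine of epithelial tuft cells, separated the cattle more than the stages. Its early-stage levels were 0.97, 0.57 and 1.16 in cattle 1, 4 and 7, −0.44 in animal 6, and −1.59 to −1.18 in the other 5. At the middle stage the 4 stood at −0.46, −0.41, −0.42 and −1.70 and the other 5 at −2.74 to −1.87, and at the late stage at 0.47, 0.55, 0.34 and −0.12 against −2.0 to −1.43. The SD of the animal means was 1.02, against 0.293 within cattle, a ratio of 3.47. The next highest ratio of the 59 probes was 1.39, their median 0.683, and 5 of 10125 measured array probes with complete values exceeded that of IL25. Within cattle IL25 changed by −1.09 ± 0.14 (adjusted *P* = 5.04e-06) and 0.81 ± 0.14 (adjusted *P* = 6.03e-05), in 9 of 9 cattle each time, with 5 of 9 middle-stage arrays above background, and normexp correction left neither called.

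Receptor chains that pair with the common gamma chain or bind interleukins 4 and 13 rose at the middle stage and fell again, and all 4 measured ones were called in both periods. Of all array probes measured at either stage compared, 30.7% were higher during the first period and 26.7% lower during the second. The share of array probes called in both periods was not counted. IL2RG, the common gamma chain itself, lay at 2.62, 3.17 and 3.53 (early), 3.82, 4.22 and 4.66 (middle) and 2.85, 3.35 and 3.70 (late). It changed by 1.04 ± 0.13 (adjusted *P* = 3.09e-06) and −0.82 ± 0.13 (adjusted *P* = 1.9e-05), in 9 of 9 cattle each time and with no overlap of the middle-stage range with the others. IL13RA1, a receptor of interleukins 4 and 13, lay at 1.96, 2.15 and 2.5 (early), 2.68, 3.19 and 3.46 (middle) and 2.09, 2.26 and 2.56 (late), and changed by 0.92 ± 0.11 (adjusted *P* = 1.28e-06) and −0.79 ± 0.11 (adjusted *P* = 3.03e-06), again without overlap.

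IL4R changed by 0.46 ± 0.09 (adjusted *P* = 0.000295) and −0.59 ± 0.09 (adjusted *P* = 1.89e-05), and IL2RA, which makes the interleukin-2 receptor of high affinity, by 0.63 ± 0.17 (adjusted *P* = 0.0034) and −0.51 ± 0.17 (adjusted *P* = 0.0116). The signs of all 4 held under the 4 other scalings, but cyclic loess left IL2RA not called in both periods, and normexp correction left the first-period rise of IL2RG and IL4R (0.36 and 0.03) and the second-period fall of all 4 (−0.11, −0.11, −0.01 and 0.00 for IL13RA1, IL2RA, IL2RG and IL4R) not called. None of the 4 was called over the total period. IL7R was above background on 6, 3 and 0 arrays of the 3 stages and IL21R on 3, 0 and 8.

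In the interleukin-6 group, IL11RA, the receptor of interleukin-11, lay at 2.39, 3.00 and 3.40 (early), 2.99, 3.66 and 4.55 (middle) and 2.34, 2.54 and 3.46 (late). It rose by 0.71 ± 0.16 (adjusted *P* = 0.000727) in 9 of 9 cattle and changed by −1.06 ± 0.16 (adjusted *P* = 9.95e-06) during the second period, and normexp correction left neither called. Its ligand IL11 rose by 0.79 ± 0.23 (adjusted *P* = 0.00517) during the second period in 9 of 9 cattle, with 6 of 9 middle-stage arrays above background, and was not called under normexp either. IL6R changed by 0.31 ± 0.12 (adjusted *P* = 0.0308) and −0.40 ± 0.12 (adjusted *P* = 0.00596), with both signs turned under normexp correction (−0.18 and 0.27, not called). IL6ST, the signaling chain of the family, was not called and had stage means of 2.38, 2.12 and 2.19. IL27RA was above background on 7, 1 and 9 arrays and rose by 0.83 ± 0.19 (adjusted *P* = 0.00373) over the total period in 9 of 9 cattle. Its second-period value of 1.06 ± 0.19 (adjusted *P* = 5.78e-05) became −0.12 under normexp correction.

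Among the remaining interleukin names, IL34, a ligand of the macrophage receptor CSF1R, changed by 0.46 ± 0.13 (adjusted *P* = 0.00479) and −0.38 ± 0.13 (adjusted *P* = 0.0137), and both signs turned under normexp correction (−0.02 and 0.14, not called). IL32 fell by 0.57 ± 0.24 (adjusted *P* = 0.0459) during the first period, a call lost with scaling to the 75th percentile and with quantile normalization. The probe named IL4I1 was not called, with stage means of 5.49, 5.62 and 5.46.

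Of the 14 measured chemokines 8 were called in no comparison, against 20 of all 59 measured probes. The share over all array probes was not counted, so these numbers are not read as particular to chemokines. CXCL10, which interferon gamma induces and which draws T cells, was the chemokine with the largest rise. It lay at 0.18, 0.95 and 2.98 (early), −0.36, −0.06 and 1.45 (middle) and 1.65, 2.35 and 3.07 (late), and every late-stage level exceeded every middle-stage level. CXCL10 changed by −0.88 ± 0.30 (adjusted *P* = 0.0134) during the first period, by 2.15 ± 0.30 (adjusted *P* = 4.2e-06) during the second in 9 of 9 cattle and by 1.27 ± 0.30 (adjusted *P* = 0.00499) over the total period. The first of these calls was lost with the scan day as a block (−0.74, adjusted *P* = 0.0565) and without the 3 dimmest middle-stage arrays (−0.69, adjusted *P* = 0.0822). The neighboring CXCL9 and CXCL11, induced by the same signal, were above background on at most 2 and 6 arrays of a stage. CXCL14, which keratinocytes make constitutively, lay at 5.56, 6.90 and 7.26 (early), 5.92, 6.82 and 7.33 (middle) and 6.67, 7.10 and 7.38 (late), and rose by 0.43 ± 0.19 (adjusted *P* = 0.0488) during the second period, a call lost under 3 of 4 other scalings.

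CCL5, a chemoattractant of T cells and monocytes, fell from the early stage and was not called to return. Its levels were 0.62, 1.72 and 4.07 (early), −0.92, 0.17 and 1.73 (middle) and −0.41, 0.57 and 1.54 (late), with 8 of 9 middle-stage arrays above background. It changed by −1.72 ± 0.34 (adjusted *P* = 0.000261) during the first period, by 0.56 ± 0.34 (adjusted *P* = 0.149) during the second and by −1.16 ± 0.34 (adjusted *P* = 0.021) over the total period, and without animal 9 the last was −0.87 (adjusted *P* = 0.0608) and without animal 1 −1.06 (adjusted *P* = 0.0657). CCL22, a dendritic cell and macrophage product, was above background on 9, 1 and 5 arrays and lay at −1.74, −1.0 and −0.41 (early), −3.89, −2.34 and −1.03 (middle) and −5.17, −2.45 and −1.48 (late). With most later arrays at background, the sizes of its differences are uncertain. It was lower in 9 of 9 cattle in both comparisons with the early stage, by 1.33 ± 0.35 (adjusted *P* = 0.00264) and 1.81 ± 0.35 (adjusted *P* = 0.00122), and normexp correction left the first not called.

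CCL14 rose by 0.67 ± 0.17 (adjusted *P* = 0.00177) during the first period, and CCL25, above background on 7, 5 and 9 arrays, by 0.86 ± 0.17 (adjusted *P* = 0.000282), followed by −0.53 ± 0.17 (adjusted *P* = 0.0107). Cyclic loess ended the call of CCL14, and quantile normalization the second-period call of CCL25. The chemokines called in no comparison were CCL2, CCL8, CCL11, CCL21, CXCL3, CXCL6, CXCL8 and CXCL12. CXCL8, the main neutrophil attractant, lay at −0.69, 0.43 and 4.67 (early), −2.93, −0.26 and 1.92 (middle) and −2.56, −0.52 and 2.89 (late), with 7 of 9 middle-stage arrays above background, and its SDs between cattle of 1.68, 1.64 and 1.56 exceeded its first-period difference of −1.07 ± 0.73 (adjusted *P* = 0.205). CXCL6, another neutrophil attractant, lay at −1.46, 0.03 and 3.28 (early), −0.42, 0.63 and 3.03 (middle) and −3.75, −0.20 and 2.18 (late), with 8 of 9 arrays above background in each of the later stages. It differed by 0.33 ± 0.57 (adjusted *P* = 0.616), −1.24 ± 0.57 (adjusted *P* = 0.0584) and −0.91 ± 0.57 (adjusted *P* = 0.292). CCL2, which draws monocytes, had stage means of 3.07, 2.40 and 2.73 with SDs of 0.95, 0.99 and 1.25. The other 5 were measured at 2 stages or 3 and differed by at most 0.75 in any comparison.

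**Figure D5:**
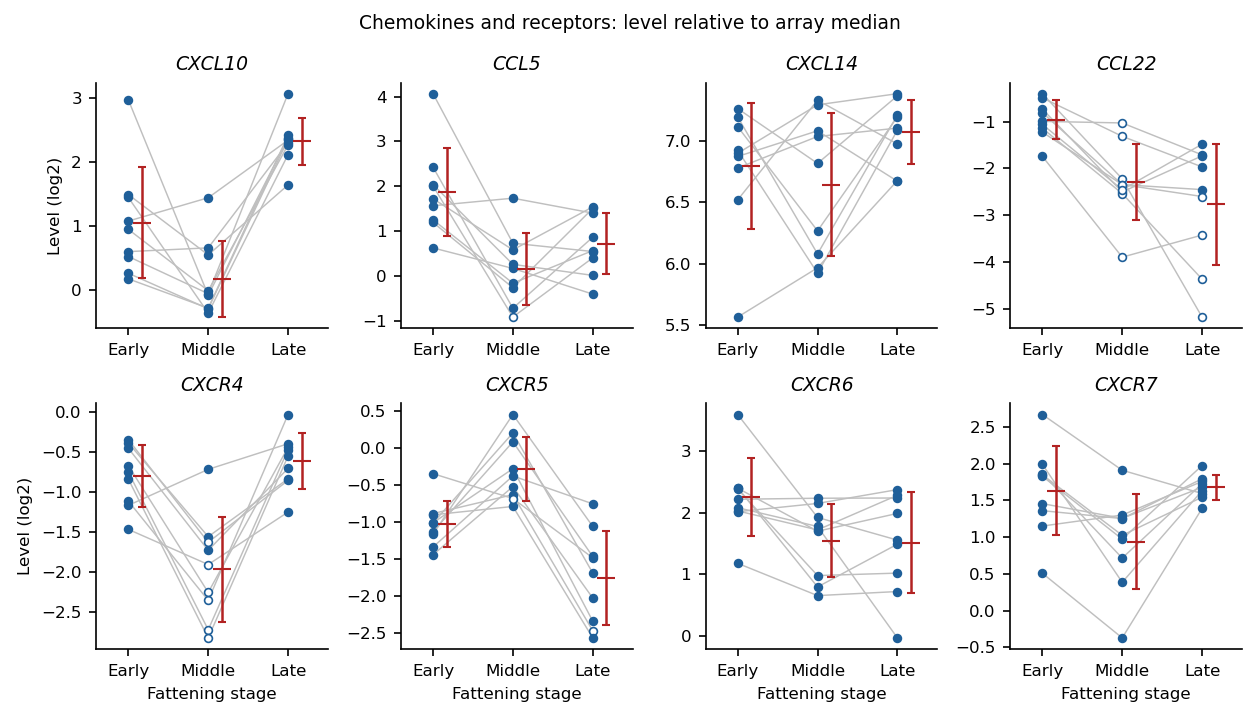
Level (log2 intensity relative to the array median, y axis) by stage (x axis) for 4 chemokines and 4 chemokine receptors, drawn as in the plot of the interleukin-1 family. Late-stage points of CXCL10 lie at 1.65 or above and middle-stage points at 1.45 or below, and most middle-stage points of CXCR4 and CCL22 are open because they were not well above background.

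Chemokine receptors were mostly dim, with 7 of 17 probes measured and 2 of them, CXCR6 and CXCR7, at every stage. CXCR7, an atypical receptor that scavenges CXCL12, lay at 0.51, 1.83 and 2.67 (early), −0.37, 1.03 and 1.91 (middle) and 1.39, 1.68 and 1.98 (late), and changed by −0.69 ± 0.19 (adjusted *P* = 0.00349) and 0.74 ± 0.19 (adjusted *P* = 0.00177). CXCR4, the signaling receptor of CXCL12, was above background on 9, 3 and 9 arrays and lay at −1.47, −0.75 and −0.35 (early), −2.83, −1.91 and −0.72 (middle) and −1.25, −0.55 and −0.03 (late). It changed by −1.17 ± 0.23 (adjusted *P* = 0.000208) and 1.35 ± 0.23 (adjusted *P* = 3.47e-05), but under normexp correction by 0.01 and 0.03, neither called.

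CXCR6, carried by tissue-resident T cells, lay at 1.18, 2.21 and 3.58 (early), 0.66, 1.72 and 2.23 (middle) and −0.03, 1.55 and 2.37 (late), and was lower by 0.70 ± 0.25 (adjusted *P* = 0.0181) and 0.74 ± 0.25 (adjusted *P* = 0.0424) in the comparisons with the early stage. The cattle did not all share this direction. Animals 2 and 8 were higher at the middle than at the early stage, and animals 2, 3 and 8 at the late stage. The early-stage level of animal 9 was 3.58, against 1.18 to 2.40 in the other cattle. CXCR5, the homing receptor of B cell follicles, went the other way during the first period, by 0.74 ± 0.21 (adjusted *P* = 0.00444), and then fell by 1.48 ± 0.21 (adjusted *P* = 5.88e-06) in 9 of 9 cattle, with 8 of 9 arrays above background in each of the later stages. CCR7 was not called, with stage means of 0.33, −0.29 and −0.13.

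The neutrophil receptors CXCR1 and CXCR2 are paralogs, and their probes are shown with the longest run they share, 13 bases, in capitals.
CXCR1, chr2:106938414-106938473, minus strand: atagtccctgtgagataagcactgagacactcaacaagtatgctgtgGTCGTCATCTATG
CXCR2, chr2:106913318-106913377, plus strand: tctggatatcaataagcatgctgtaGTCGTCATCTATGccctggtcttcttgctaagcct
The CXCR2 probe printed here was above background on 9, 1 and 9 arrays, with stage means of −2.10, −2.31 and −2.09, and was not called. The CXCR1 probe was above background on 1 of 27 arrays. The other probe named CXCR2, whose accession is now that of CXCR1, was above background on 5, 2 and 3 arrays.

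TNF, the archetypal inflammatory cytokine, was above background on 5 early-stage, 0 middle-stage and 4 late-stage arrays, with stage means of −2.47, −3.09 and −2.96. IFNG, the lymphocyte interferon that induces CXCL10, was above background on 7, 0 and 4 arrays, with stage means of −2.44, −2.90 and −3.00. Neither was called in any comparison. The probe named IL6 was above background on 1 late-stage array. The values of these probes at the middle stage lie at the level of background, so that only their presence on some arrays of the other stages can be read.

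Genes that receive or pass on these signals were counted over lists that were chosen with earlier results of these data known. A call is counted where its probe was measured at either stage compared, and over the array 30.7% of such probes were higher and 31.1% lower during the first period, 40.1% and 26.7% during the second, and 15.5% and 8.92% over the total period. Of 9 measured receptors and adaptors of TNF and the interferons, 2 were higher and 7 lower during the first period, 6 higher and 1 lower during the second, and 0 higher and 1 lower over the total period. IFNGR1 and IFNGR2, which make up the receptor of IFNG, changed by −1.47 and −1.12 and then by 1.42 and 1.13. TNFRSF1A, the main TNF receptor, changed by −0.55 and 0.61, while IFNAR2 changed by 0.42, −1.64 and −1.22 in the 3 comparisons. Of 22 measured genes that carry signals from interleukin-1 receptors to NF-κB, 2 were higher and 9 lower during the first period, 10 higher and 1 lower during the second, and 5 higher and 0 lower over the total period. MYD88, the adaptor of these receptors, rose by 0.66 (second period) and 0.49 (total period), NFKB2 by 0.92 and 0.80, and TRAF6 by 0.88 and 0.40. Of 18 measured other cytokines and receptors 4 were higher and 2 lower during the first period and 3 higher and 5 lower during the second, and of 5 measured other chemokines and receptors 0 and 2, then 2 and 1. LIFR, the receptor of leukemia inhibitory factor, changed by 1.08 and −0.98, and CX3CL1, a membrane-bound chemokine, by −0.70 and 0.52.

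A biopsy holds several cell types, and fewer cells of a type and less RNA per cell cannot be told apart here. Markers of stratified epithelium were present as labeled, with KRT5 and KRT6A means at 8.68 or above in every stage, though KRT4 was above background on no array. Among 20 leukocyte markers 16 were measured, of which 3 were higher and 4 lower during the first period, 4 higher and 4 lower during the second, and 1 higher and 6 lower over the total period. Their summed level, in log2 relative to the array median, ranged from 6.51 to 7.69 at the early, 6.63 to 7.26 at the middle and 6.46 to 7.19 at the late stage. CD4 and ITGAM were above background on no array. PTPRC, carried by all leukocytes, differed by 0.51 during the first period (not called), fell by 1.24 during the second and by 0.73 over the total period. CD3G and CD3E, subunits of 1 T cell receptor complex, went opposite ways, by −1.34 and 2.08 against 0.62 and −1.68. Of 10 measured epithelial markers 2 were higher and 5 lower during the first period and 2 higher and 2 lower during the second. The summed level of all 11 on the array ranged from 11.5 to 12 at the early, 9.64 to 12 at the middle and 11.7 to 12 at the late stage, with medians of 11.85, 11.04 and 11.83, so that it was lowest at the stage where IL36RN and IL10RB were lowest. Smooth muscle and fibroblast markers had their highest median sums at the middle stage, 7.63 and 8.84, against 6.57 and 8.13 at the early and 6.39 and 8.18 at the late stage. The blood marker HBA was higher at the middle stage by 1.22. The part of these cell types in the results above was not tested.

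The early-stage biopsy of animal 9 stood apart in these genes. Of the 56 probes measured at the early stage it was the highest of the 9 arrays in 27 (48.2%), whereas it was the highest in 11.4% of the 9963 array probes measured at that stage. On it CXCL8 stood at 4.67 against −0.69 to 2.17 in the other 8 cattle, IL1B at 3.75 against −1.15 to 0.87, and CCL5 at 4.07 against 0.62 to 2.43. CXCL6 stood at 3.28 against −1.46 to 1.97 and CCL8 at 2.49 against −1.73 to 0.36. The summed leukocyte markers of this array were 7.69, against 6.51 to 7.24 in the others, and it was also the 1 early-stage array on slide 2. The part of cell content and of the slide in this was not tested. Without animal 9 the first-period changes of CCL5 and CXCL10 were −1.52 and −0.61 (adjusted *P* = 0.000544 and 0.0432), and those of IL36RN and IL10RB −2.23 and −2.14. The late-stage biopsy of animal 3 was likewise the highest of its stage for CXCL8 (2.89), CXCL6 (2.18), CXCL3 (2.92), CCL8 (2.03), CXCL10 (3.07) and IL1B (0.41). It was the highest array in 13 of the 55 probes measured at the late stage (23.6%), against 11.8% of all array probes measured there. Other arrays showed a similar excess. For animal 2 at the late stage the shares were 18.2% against 8.3%. At the middle stage they were 15.6% against 6.71% for animal 1 and 12.5% against 4.08% for animal 2.

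Slides bear on the first period in a way that can be measured. Of the 31 measured probes called in it, all 31 kept their direction and 28 their call with the scan day as a block, and all 31 kept their direction and 20 their call with the slide as a random block. The scan-day block cannot separate slide 1 from slide 2, since both were scanned on the same day. With the slide as a fixed block, a fit that rests on the arrays of cattle 8 and 9 to separate slide from stage, 27 kept their direction and 5 their call, and CXCR5, CXCR7, IL10 and IL1R2 turned. Within slide 2, where 1 early-stage array stands against 7 middle-stage arrays, 29 kept their direction and 1 its call. With the slide as a random block 23 of 30 measured probes kept their second-period call, and 0 of 14 their call over the total period. In that fit IL17RA stood at 1.32 (adjusted *P* = 0.134), IL17RE at −1.07 (adjusted *P* = 0.079) and CXCL10 at 0.92 (adjusted *P* = 0.503) over the total period. Over the total period normexp correction ended the calls of CXCR5, CXCR6, IL17D, IL1RL1, IL20RA, IL23A and IL27RA, and quantile normalization those of IL10, IL17D, IL1RN and IL20RA.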

How the data were processed

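RNA of 27 RE biopsies (9 cattle at 3 stages) was read on one-color arrays, 1 per biopsy. The authors extracted RNA with TRIzol and labeled it with cyanine 3, and Agilent Feature Extraction subtracted the local background from each spot and wrote the deposited intensity values with marks for spots above background, saturated spots and outliers. The version is 9.5 in the methods and 11.0.1.1 in the file headers. A second deposited table, of log2 values with column medians of −3.07 to −2.60, equals the log2 signal minus the 75th percentile of each array to within 0.0207 per array (SD over probes of at most 0.0286) and was used as an alternative.

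Here the log2 processed signal was set relative to the array median over 15008 non-control probes (60 bases), spots of 1 probe were averaged, outlier spots were left missing and saturated spots kept. One limma model (3.58.1, R 4.3.3, statmod 1.5.0) with stage and animal was fitted to all 27 arrays, Benjamini-Hochberg adjustment of *P* covered 15008 probes, and a probe was called below 0.05. The fit was tested on simulated data. The same 9 cattle pair the arrays: after the stage means were taken off, arrays of 1 animal correlated at 0.158 on average and arrays of different cattle at −0.020. Fold bounds use the lowest signal above background of each array. Marker sums are log2 of summed signals.

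Full statistics were given to the 5 largest rises and 5 largest falls per comparison among called probes measured at 1 of the 2 stages or more and changed the same way in at least 8 of 9 cattle, and to genes named in the tables of the study (CCL5, CXCL6, CXCL10, IL10RB, IL11RA, IL1RL1, IL22RA1), TNF, IFNG, IL1A, IL1B, IL6, CXCL8, IL10 and IL18. The other measured probes are given more briefly, and 1 of the 59 enters the counts but is not reported here. Members and lists were chosen with earlier results of these data known. The samples are separate biopsies of 9 cattle per stage, and precision is limited by that number and by signal over background.

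Alternatives were 75th percentile scaling, quantile normalization, cyclic loess, normexp with an offset of 50, removal of dim probes, kept outliers, the deposited log2 table, no animal block, scan day as a block, slide as a fixed or as a random block, slide 2 alone, the methods' t-test, and each animal left out. Leaving out the 3 dimmest middle-stage arrays was added after seeing the data.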

Additional observations from a re-analysis of the deposited data

Results flagged for a closer look

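A level was picked out here where the highest or lowest of the 9 arrays of a stage lay far from the nearest of the others, by Dixon's ratio of that gap to the whole range. Of 143 sets of levels of measured probes 20 were picked out in this way, and chance alone does so in about 1 in 20 sets. Animal 9 at the early stage accounted for 6 of them, all at the high end. On that array CCL8 stood at 2.49 (nearest other 0.36), CXCL10 stood at 2.98 (nearest other 1.5), IL2RA stood at 0.94 (nearest other 0.17). There, too, IL17D stood at −0.72 (nearest other −1.14), IL1B stood at 3.75 (nearest other 0.87) and IL11 stood at 0.82 (nearest other −0.63).

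The remaining levels are given with that of the nearest other animal. Among the other early-stage arrays CXCL12 was highest in animal 6 at 2.64 against 0.34, CXCL14 was lowest in animal 1 at 5.56 against 6.52, IL2RG was lowest in animal 4 at 2.62 against 3.11, IL11RA was lowest in animal 1 at 2.39 against 2.95 and IL34 was highest in animal 7 at 1.61 against 1.47. Among the middle-stage arrays IL36RN was lowest in animal 4 at 0.63 against 2.06, IL1R1 was lowest in animal 8 at 0.14 against 1.48, IL1RAP was highest in animal 2 at 1.44 against 0.75, IL1RL1 was highest in animal 4 at 9.32 against 8.51 and IL4I1 was highest in animal 2 at 6.77 against 5.76. Among the late-stage arrays CCL8 was highest in animal 3 at 2.03 against 0.53, IL17RE was highest in animal 1 at 0.52 against −0.32, IL1A was highest in animal 3 at 4.38 against 2.83 and IL11RA was highest in animal 2 at 3.46 against 2.84. Animal 4 at the middle stage, picked out for IL36RN and IL1RL1, is the array with the lowest median signal (8.05).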

How the results depend on the processing

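Counts below are of the 119 probes, called higher in the first, second and total periods (48, 20 and 9 as reported) or lower (19, 51 and 13). Quantile normalization gave 16 higher in the first, 17 lower in the second and 5 higher in the total period. Cyclic loess could use 32 of the probes and gave 10, 9 and 3 higher and 10, 10 and 8 lower. Without dim probes, with 59 left, 15 were higher in the first and 14 lower in the second period. Normexp correction gave 5 higher and 3 lower over the total period. The slide as a random block gave 30 higher in the first and 0 higher and 1 lower over the total period, where limma had 2 and 12 at an unadjusted *P* below 0.05. A fixed slide block gave 3 higher and 5 lower in the first period, and slide 2 alone 0 and 2, with 14 and 28 at an unadjusted *P* below 0.05. Over the array, median changes (log2) of the first and second periods were 0.32 and −0.27 as reported, 0.09 and −0.04 under quantile normalization, 0.39 and −0.46 under 75th percentile scaling (−0.09 over the total period) and 0.12 and −0.11 under normexp correction. Over all probes the higher and lower calls of the first period went from 6792 and 3193 to 3677 and 3492 under quantile normalization, those of the second from 4048 and 6688 to 4060 and 3860, and those of the total period from 1679 and 1340 to 998 and 1931 under 75th percentile scaling and to 802 and 392 under normexp correction. Cyclic loess, over 6764 probes, had 2227 and 2156, then 2395 and 2366.

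Leaving out 1 animal at a time gave 44 to 51, 19 to 21 and 5 to 13 higher and 16 to 21, 48 to 52 and 9 to 14 lower, and the lowest count of 5 came without animal 6. Without the animal block, that is without the pairing, the counts were 48, 17 and 7 higher and 19, 51 and 12 lower, and of 37 single-gene changes IL20RA alone lost its call (0.47, over the total period). The methods' t-test gave 44, 18 and 10 higher and 17, 45 and 10 lower, and with the 2-fold threshold of the methods 26, 12 and 4 higher and 12, 36 and 4 lower.

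Of 771 values of those 37 changes under 23 alternatives, 693 kept direction and call, 77 kept direction without the call and 1 turned: IL10 in the first period, −0.50 under the fixed slide block. The cause was not tested. Calls were lost most often within slide 2 (14 of 15), with the slide as a random (13 of 37) or fixed block (11 of 15) and under normexp correction (11 of 37), and in 14 of 333 values with 1 animal left out. Signal over background limits the middle stage most, where 32 of the 119 probes were measured and the others were below background on some or all of the 9 arrays.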
